A study of Homo sapiens with 4 samples.

Results

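Ion channels are membrane proteins that let ions cross down their gradients, and a cell's set of channels bears on its membrane potential, its volume and its calcium entry. Pore-forming subunits make the path for ions, and accessory subunits alter how a pore opens or how much of it reaches the membrane. Gliomas are known for calcium-activated potassium channels such as KCNMA1 and KCNN4 and for chloride transport by CLCN3, which have been tied to volume change and migration. The genes described here are the rows of the count table whose symbol has the form of a potassium, calcium, sodium or chloride channel gene, a TRP channel, a PIEZO, an anoctamin, a P2X receptor or a CATSPER subunit, and whose raw count averaged 50 or more over the 4 libraries. Of 58219 rows in the table, 177 had such a symbol, and 51 of these reached the count. The count threshold was part of how the genes were chosen, so their levels are given as a description.

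The libraries came from U87, an established human glioblastoma line, grown in all cases with serum in a glucose-rich medium that held no pyruvate. After 24 h in culture the medium was renewed. The controls got it plain and the treated cells got it with 50 mM carnosine, the dipeptide beta-alanyl-L-histidine, and RNA was taken 24 h later. There were 2 control and 2 carnosine libraries of total RNA depleted of ribosomal RNA, and the labels do not say that the 2 of a group came from separate cultures, so the p values rest on a spread that may be only technical.

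Gene counts summed to between 51632970 and 71766267 per library, and the 51 channel genes took between 0.144% and 0.174% of them. Of 12 astroglial and glioma markers, VIM and CD44 had between 1107 and 7420 CPM (the raw count relative to the scaled library size), while GFAP had between 4 and 16 counts and S100B, AQP4 and FABP7 had none. The summed level of these 12 was 8433 to 8959 CPM in the controls and 7284 to 7585 CPM with carnosine, and 2 of the 8 tested, SLC1A3 and CHI3L1, rose. Most of that sum was VIM, with a mean of 7232 CPM in the controls and 5606 CPM with carnosine (adjusted p = 0.139), while the median log2 fold change of the 8 was 0.29. The summed level of 6 neuronal markers was 33.1 to 38.0 CPM in the controls and 31.2 to 36.6 CPM with carnosine, with RBFOX3 and STMN2 at 0 counts and none of the 3 tested members past the test. The 4 endothelial markers summed to 2.39 and 2.98 CPM in the controls and 6.80 and 5.64 CPM with carnosine, nearly all of it PECAM1, which rose, with CDH5 at 0; the part of these markers in the results below was not tested. Markers of sperm and testis were at 0 except for 2 counts of DDX4 in a carnosine library. In bulk RNA, more cells with a transcript and more of it per cell cannot be told apart.

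Of the 51 channel genes, 9 passed edgeR's quasi-likelihood test (adjusted p below 0.05), with 6 raised and 3 lowered by comparison with the controls. The share called was 8.31% over all 16340 genes tested (3.95% higher, 4.36% lower) and 9.95% over the 13035 genes with a mean count of 50 or more (4.53% higher, 5.42% lower). KCNE4, KCNJ14, TRPV1, KCNJ2, TRPM3 and SCN2A were higher, and CATSPER1, P2RX6 and TRPV2 were lower. Of these, KCNE4 and KCNJ14 averaged 42.5 and 31 counts in the controls and reached the mean count of 50 through the carnosine libraries. The genes were also chosen with earlier results of these data known, so the 9 are given as a description. The log2 fold change of the 51 genes had a median of 0.07. That median was 0.0009 over all genes tested and -0.018 over those with a mean count of 50 or more. Its absolute value had a median of 0.36, against 0.26 over all genes tested and 0.22 over those with a mean count of 50 or more. The 2 groups did not overlap for 30 of the 51, 17 higher and 13 lower, where the share was 56.5% over all genes tested and 59.3% over those with a mean count of 50 or more. At an unadjusted p under 0.05 there were 25 of the 51, where the shares were 27.4% and 30.7%.

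**Figure D1:**
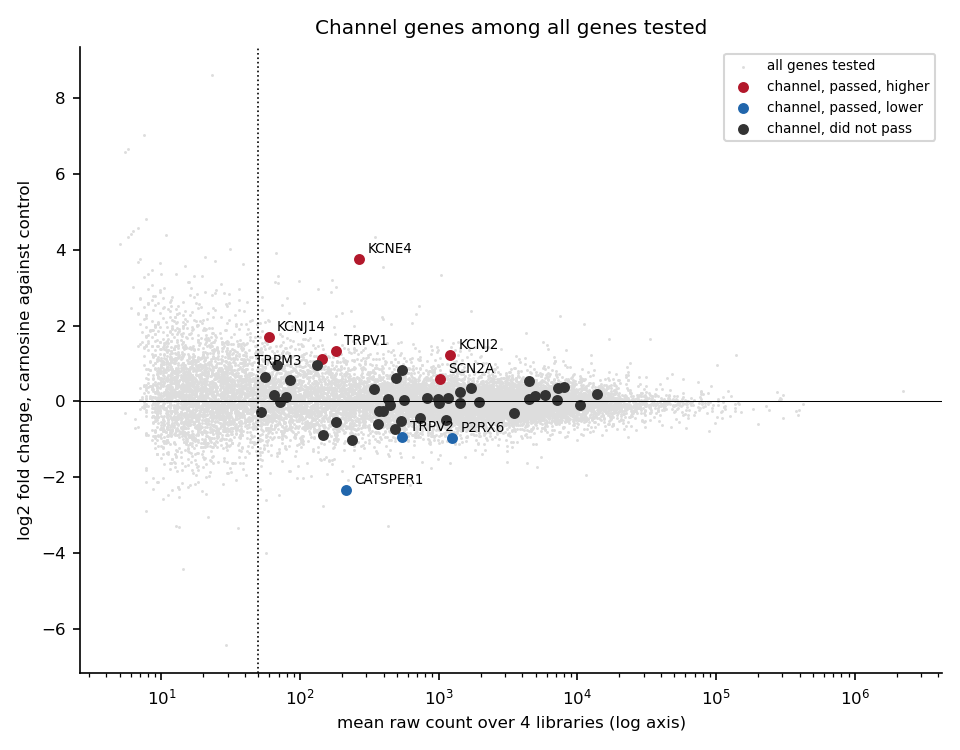
Log2 fold change of carnosine against control (vertical axis) by mean raw count over the 4 libraries (horizontal, log axis) for all 16340 genes tested in grey and the 51 channel genes as larger points, with the mean count of 50 as a dotted line. The 9 channel genes that passed are named; KCNE4 at 3.76 and CATSPER1 at -2.33 lie farthest from 0.

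Among accessory subunits of potassium channels, KCNE4 rose. It encodes a small subunit with a single membrane span that is known to lower currents of KCNQ1 and of some other voltage-gated potassium channels. KCNQ1 itself had only 4 and 0 counts in the controls and 2 and 0 with carnosine. KCNE4 (ENSG00000152049.6, chromosome 2, 223051814 to 223198399, GRCh38) had 63 and 22 counts in control replicates 1 and 2 and 619 and 361 in carnosine replicates 1 and 2. On the scale of CPM these were 0.886 and 0.375 against 10.3 and 7.17, so that the lower carnosine library stood far above both controls. The log2 fold change was 3.76 ± 0.39 (SE, n = 2 each; adjusted p = 0.0108, edgeR), a 13.6-fold rise, and it was between 3.29 and 4.53 with 1 library left out, the highest without control replicate 1. KCNE4 had 42.5 counts on average in the controls, so it reached the mean of 50 through the carnosine libraries. The other accessory genes of this kind did not pass: for KCNAB2, a cytosolic beta subunit, the log2 fold change was -0.74 ± 0.32 (adjusted p = 0.189) with overlapping groups, and KCNMB4, a beta subunit of the BK channel KCNMA1, had -0.02 ± 0.34.

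Of 4 inward rectifiers, which pass potassium more readily into the cell than out of it, 2 rose. KCNJ2, a rectifier that holds the resting potential in muscle and many other cells, had 12.1 and 12.99 CPM in the controls and 26.2 and 32.0 CPM with carnosine. The groups were well apart, and the log2 fold change was 1.22 ± 0.14 (adjusted p = 0.0113), a 2.33-fold rise. KCNJ2 (ENSG00000123700.4) spans 70168673 to 70180048 on chromosome 17. KCNJ14, a rectifier of the same subfamily, had only 36 and 26 counts in the controls and 119 and 56 with carnosine, or 0.506 and 0.443 against 1.98 and 1.11 CPM. Its carnosine libraries differed from each other more than its controls did. Its log2 fold change of 1.70 ± 0.40 just passed (adjusted p = 0.0491). That call ended without control replicate 1 (0.105), control replicate 2 (0.138) or carnosine replicate 1 (0.175), in limma-voom (0.0623) and with total counts only (0.0607). KCNJ8, the pore of a channel closed by ATP, and KCNJ15 had log2 fold changes of -0.28 ± 0.36 and -0.55 ± 0.22 and did not pass (adjusted p = 0.66 and 0.170).

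Among 8 TRP channels, 2 rose and 1 fell. TRPV1, the receptor of capsaicin and noxious heat, had 1.49 and 2.096 CPM in the controls and 4.59 and 4.37 CPM with carnosine, a log2 fold change of 1.32 ± 0.24 (adjusted p = 0.0279). Its call ended without control replicate 1 (adjusted p = 0.0821). TRPM3, a heat-activated channel that also responds to the steroid pregnenolone sulphate, had 1.41 and 1.69 CPM against 3.18 and 3.59 CPM, a log2 fold change of 1.13 ± 0.24 (adjusted p = 0.0383). Both libraries of each group lay close together, but the call ended without control replicate 1 (0.149), control replicate 2 (0.0784) or carnosine replicate 2 (0.0720). TRPV2, a cation channel related to TRPV1, went the other way, with 9.69 and 13.8 CPM in the controls and 5.35 and 6.95 CPM with carnosine. Its log2 fold change was -0.93 ± 0.22 (adjusted p = 0.0491), and the call ended without control replicate 2 (0.181), without carnosine replicate 1 (0.0911), in limma-voom (0.0575) and with 2 of the other scalings.

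The other TRP channels did not pass edgeR's test. Of the 8 TRP channels, 4 were called by DESeq2, with TRPM8 added, and 2 by limma-voom. Over all 16340 genes tested, DESeq2 called 2187 and limma-voom 1322, where edgeR called 1358. TRPM8, the cold and menthol receptor, had 1.56 and 1.53 CPM in the controls and 2.59 and 3.42 CPM with carnosine, and its log2 fold change of 0.95 ± 0.26 missed the threshold in edgeR (adjusted p = 0.0657) and not in DESeq2 (0.0313). TRPM7, a channel fused to a kinase and the TRP gene with the most counts, had 0.16 ± 0.13. TRPC1, TRPC4 and TRPM4 had 0.10 ± 0.13, 0.07 ± 0.22 and -0.05 ± 0.17, each with overlapping groups.

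SCN2A was the 1 of 3 voltage-gated sodium channels that passed. It had 13.4 and 14.1 CPM in the controls and 21.2 and 19.9 CPM with carnosine, a log2 fold change of 0.58 ± 0.12 (adjusted p = 0.0324). Both pairs of libraries were tight, and the change was 1.4995-fold. Its call ended without control replicate 1 (0.153), control replicate 2 (0.106) or carnosine replicate 1 (0.0671), with log2 fold changes between 0.54 and 0.62 over the 4 fits that left out 1 library. SCN9A, known for its part in pain sensing, had 0.62 ± 0.20, a value as large as that of SCN2A, but with 11.8 and 8.30 CPM in the carnosine libraries it did not pass (adjusted p = 0.1004). SCN8A had 0.07 ± 0.13. Of the 4 genes for accessory sodium channel subunits, none reached the mean count of 50.

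CATSPER1 showed the deepest fall. It encodes the pore of the calcium channel of the sperm tail, and here it was counted in a glioblastoma line. CATSPER1 (ENSG00000175294.5, chromosome 11, 66016752 to 66026517) had 367 and 363 counts in the controls and 74 and 51 with carnosine, or 5.16 and 6.19 CPM against 1.23 and 1.01 CPM. The groups were far apart, and the log2 fold change of -2.33 ± 0.23 (adjusted p = 0.00939) is a 5.04-fold fall. With 1 library left out it ranged from -2.49 to -2.20. CATSPER2, which also forms the pore, had 44 and 49 counts in the controls and 90 and 39 with carnosine, and its groups overlapped (log2 fold change 0.65 ± 0.43, adjusted p = 0.376).

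P2RX6 fell among the 3 ATP-gated receptors. P2RX6 (ENSG00000099957.16, chromosome 22, 21009808 to 21028830) had 28.6 and 24.5 CPM in the controls and 15.03 and 12.01 CPM with carnosine. Each carnosine library was well below each control, and the log2 fold change was -0.97 ± 0.15 (adjusted p = 0.0187), a 1.96-fold fall. P2RX4 had 9.52 and 11.2 CPM against 8.28 and 6.12 CPM, a log2 fold change of -0.52 ± 0.19 that did not pass (adjusted p = 0.136). P2RX7, the receptor of high ATP levels in inflammation, had 0.04 ± 0.18 with overlapping groups.

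**Figure D2:**
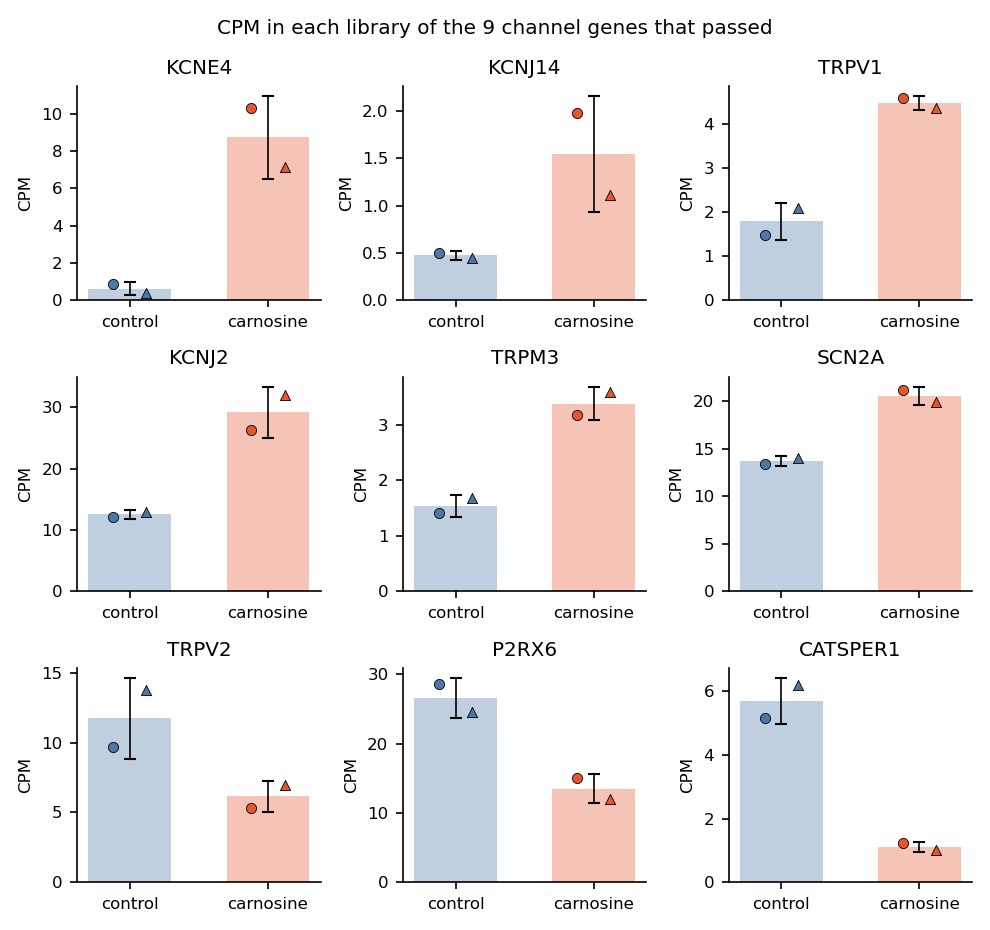
CPM (vertical axes, each starting at 0) of the 9 channel genes that passed, in the 2 control libraries (blue) and the 2 carnosine libraries (orange), with circles for replicate 1, triangles for replicate 2, bars for means and error bars for SD (n = 2). In each panel the carnosine points lie on one side of the control points; KCNE4 goes from 0.886 and 0.375 to 10.3 and 7.17 CPM.

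KCNE4, KCNJ2, CATSPER1 and P2RX6 kept an adjusted p under 0.05 in each of the 13 other fits, which changed the scaling, the filter, the test or the libraries used. They were the only 4 of the 51 that passed a test against a 1.2-fold change. The other 5 each lost the call in at least 1 fit that left out a library, and such fits have 1 residual degree of freedom, with the lone library of a group assumed to vary like the other group.

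**Figure D3:**
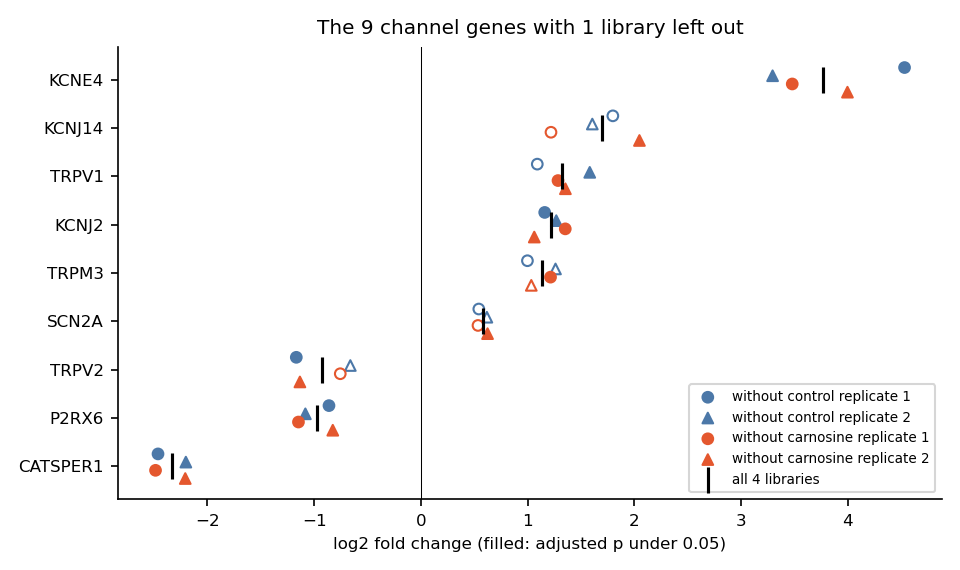
Log2 fold change (horizontal axis) of the 9 channel genes with all 4 libraries (black ticks) and with each library left out in turn (coloured points, filled where the adjusted p stayed under 0.05). KCNE4, KCNJ2, P2RX6 and CATSPER1 have filled points throughout, and open points are most frequent for KCNJ14, TRPM3 and SCN2A.

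Exons of several of these genes share bases with other genes, and although the library kit marks strand, no source used here gives the setting used in counting. TRPV1 shares 1761 exonic bases with SHPK and AC027796.3 on its own strand. SHPK had 678 and 686 counts in the controls and 415 and 357 with carnosine, a log2 fold change of -0.60 (adjusted p = 0.0653), opposite in sign to TRPV1. KCNJ14 shares 471 bases with GRWD1 and AC008403.1, and GRWD1, again opposite in sign, was at -0.41 (adjusted p = 0.0514). KCNJ2 shares 185 bases with KCNJ2-AS1 of the opposite strand, which had between 25 and 37 counts in each library. P2RX6 shares 69 bases with THAP7-AS1, which had 136 and 134 counts against 73 and 68 (log2 fold change -0.71, adjusted p = 0.148), the same sign as P2RX6. The opposite-strand partners of P2RX6, TRPV2 and KCNJ14 had at most 2 counts in a library. CATSPER1, KCNE4 and TRPM3 share no exonic base with another gene in GENCODE 29.

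Promoter windows from RefSeq (GRCh38.p14, 250 bases before to 50 after the start) were found for 42 of the 51 genes, among them 5 of the 6 that rose; KCNE4, CATSPER1, P2RX6 and TRPV2 had no entry. The windows of KCNJ2, TRPM3 and SCN2A are shown because they are the genes that rose whose window holds a CCAAT box (CCAAT on either strand, ATTGG on the reverse), and they differ widely in base composition. They lie at chr17:70169282-70169581 (plus strand), chr9:71446922-71447221 (minus strand) and chr2:165239164-165239463 (plus strand), and read 5′ to 3′ along the gene, with the CCAAT box and the GC box (GGGCGG) in capitals.
KCNJ2: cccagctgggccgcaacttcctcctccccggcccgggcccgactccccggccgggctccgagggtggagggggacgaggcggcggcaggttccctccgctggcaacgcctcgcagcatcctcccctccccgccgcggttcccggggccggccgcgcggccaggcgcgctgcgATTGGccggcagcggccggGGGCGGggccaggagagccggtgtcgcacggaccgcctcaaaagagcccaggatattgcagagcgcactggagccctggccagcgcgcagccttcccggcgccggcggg
TRPM3: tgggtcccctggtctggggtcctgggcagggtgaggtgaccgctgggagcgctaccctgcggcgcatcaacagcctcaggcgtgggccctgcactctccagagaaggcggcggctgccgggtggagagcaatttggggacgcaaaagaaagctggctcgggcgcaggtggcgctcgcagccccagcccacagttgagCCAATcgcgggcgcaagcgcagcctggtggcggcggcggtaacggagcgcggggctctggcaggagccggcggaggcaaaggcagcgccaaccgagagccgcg
SCN2A: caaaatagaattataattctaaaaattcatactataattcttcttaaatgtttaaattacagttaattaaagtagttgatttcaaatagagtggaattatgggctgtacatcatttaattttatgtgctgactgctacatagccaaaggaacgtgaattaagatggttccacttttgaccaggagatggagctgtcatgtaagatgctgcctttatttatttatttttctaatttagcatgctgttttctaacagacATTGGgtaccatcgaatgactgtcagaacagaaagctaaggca

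The KCNJ2 window held 39 CpG dinucleotides, that of TRPM3 held 29 and was 71.0% G and C, and that of SCN2A held 2 and was 31.7% G and C. TRPV1 and KCNJ14 had 61.0% and 59.7%. The median was 66.0% over the 42 windows and 58.3% over 27305 RefSeq windows of that length. The match in KCNJ2 starts 78 bases before the start site and that in TRPM3 53 bases before it. In SCN2A it lies after the start. The windows of SCN2A, KCNJ2 and TRPV1 lie wholly inside those genes as GENCODE 29 draws them. The KCNJ2 match thus lies within that gene model and not before it. CCAAT was present in 3 of the 5 windows of genes that rose, in 11 of the 42 and in 35.7% of all windows. Other motifs, searched on both strands, were counted in the 42 windows, with the share of all windows in brackets: the GC box in 32 (44.6% of all windows), TGGAAA of the NFAT core in 7 (21.1%), TATAAA in 5 (11.9% of the 42, and 3264 of the 27305), the E-box CACGTG in 5 (7.43%), TGANTCA of AP-1 in 2 (7.76%), the CRE TGACGTCA in 1 (1.98%), GTAAACA of FOXO in 0 (3.41%), and TTCAGCACC and GGACAGCGC, parts of the RE1 element, in 1 (0.403%) and 0 (0.645%). In the 5 windows of genes that rose, the GC box was in 2, TGGAAA in 1, TATAAA in 1, and each of the other motifs of this list in 0. The capitalised boxes do not overlap each other. A match describes letters and is not evidence of binding.

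Voltage-gated potassium channels held 6 of the genes, and none passed edgeR's test. An unadjusted p under 0.05 was found for 4 of them, while 2 were called by DESeq2 and 0 by limma-voom. The 2 that DESeq2 called were KCNG1 and KCNA1 (adjusted p = 0.0460 and 0.0234). Over all 16340 genes tested, 27.4% had an unadjusted p under 0.05, and edgeR called 1358, DESeq2 2187 and limma-voom 1322. With so few genes in a role, its counts here and below are given as a description. KCNG1, a silent subunit that alters other channels, had 3.68 and 6.90 CPM in the controls and 2.05 and 3.18 CPM with carnosine. Its groups were apart but both were wide, and the log2 fold change of -1.02 ± 0.35 did not pass (adjusted p = 0.121). KCNA1 had 5.92 and 7.57 CPM against 8.93 and 15.1 CPM, with 0.83 ± 0.26 (adjusted p = 0.0987). KCNQ3, of the M-current, had -0.59 ± 0.17 (adjusted p = 0.0768) and KCNC4 -0.48 ± 0.15 (0.1004). KCNH1, a channel known in tumours, had 0.32 ± 0.19, and KCNS3, the silent subunit with the most counts of the group, had -0.02 ± 0.10.

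Of 4 calcium- and sodium-activated potassium channels 0 were called by edgeR, DESeq2 or limma-voom. An unadjusted p under 0.05 was found for 2 of the 4, against 27.4% of all genes tested. KCNMA1, the BK channel and the gene with the most counts of the 51, had 220.3 and 207.1 CPM in the controls and 253.9 and 239.1 CPM with carnosine. Its carnosine libraries were both above the controls, with a log2 fold change of 0.21 ± 0.10 (adjusted p = 0.259). KCNN4, of intermediate conductance, had 59.998 and 67.7 CPM against 53.1 and 51.1 CPM, a log2 fold change of -0.29 ± 0.10 (adjusted p = 0.122). KCNN2, of small conductance, had -0.90 ± 0.32 (adjusted p = 0.125) from 173 and 230 against 87 and 99 counts, and KCNT2, a sodium-activated channel, had 0.11 ± 0.30. KCNK3, a leak channel blocked by acid outside the cell, had 62 and 40 counts against 99 and 71 and a log2 fold change of 0.97 ± 0.32 (adjusted p = 0.109).

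**Figure D4:**
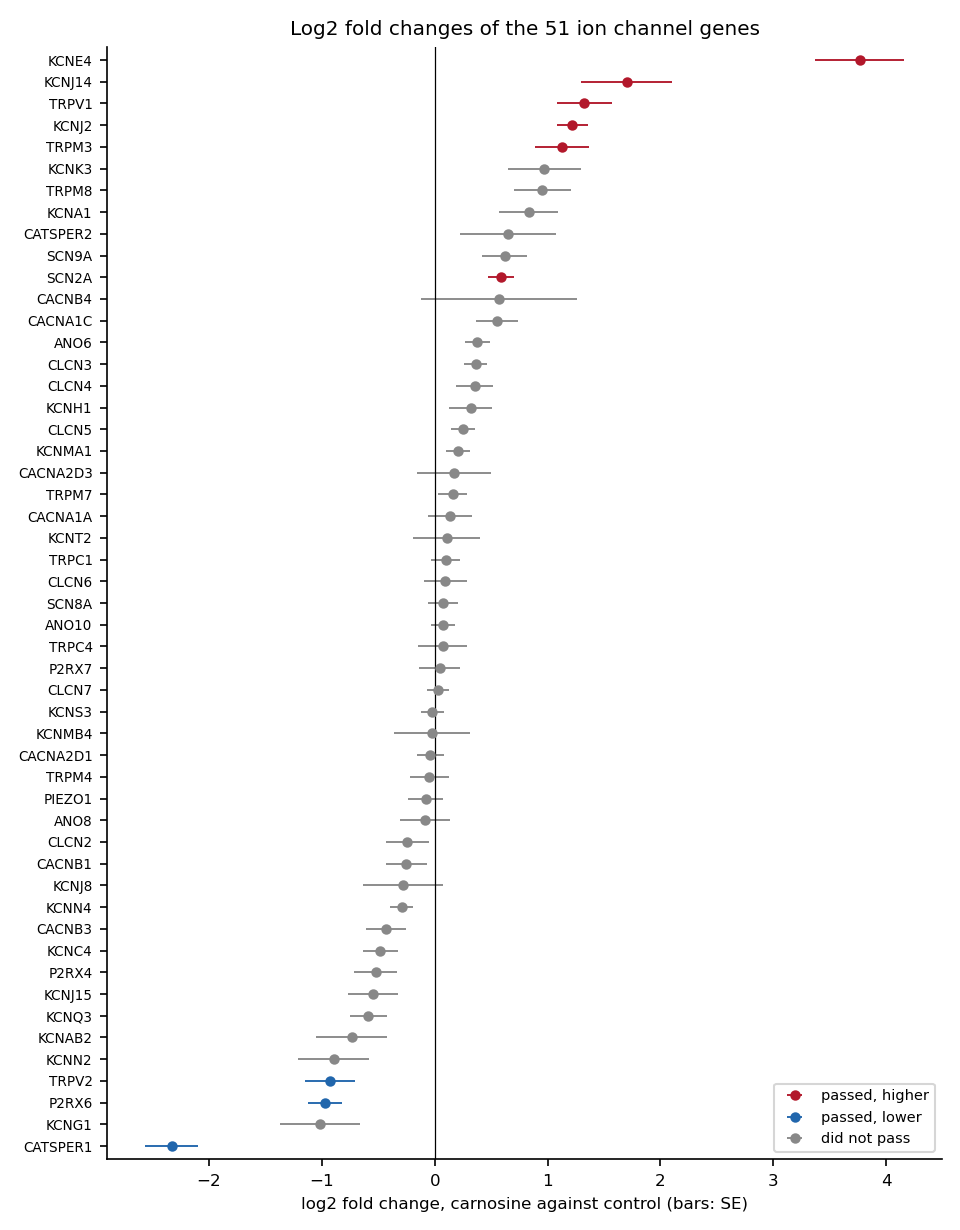
Log2 fold change of carnosine against control with its SE (horizontal axis) for each of the 51 channel genes in order of size, in red or blue where it passed and grey where it did not. Values run from 3.76 for KCNE4 to -2.33 for CATSPER1, and 17 of the 42 genes that did not pass lie within 0.2 of 0.

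Voltage-gated calcium channels were led in counts by CACNA1A and CACNA1C, the pores of the neuronal P/Q type and of the cardiac and neuronal L type. CACNA1C had 67.1 and 53.1 CPM in the controls and 103.0 and 73.2 CPM with carnosine, a log2 fold change of 0.55 ± 0.18 (adjusted p = 0.110). CACNA1A had 84.9 and 70.6 CPM against 102.3 and 68.6 CPM, and its groups overlapped (0.14 ± 0.19). Replicate 1 was the higher library in both groups for both genes. By DESeq2 1 of these 2 pores was called and by limma-voom 0, and 1 had an unadjusted p under 0.05 in edgeR. None of the 5 accessory subunits was called by edgeR, DESeq2 or limma-voom, and 1 had an unadjusted p under 0.05. Over all 16340 genes tested, DESeq2 called 2187 and limma-voom 1322, and 27.4% had an unadjusted p under 0.05 in edgeR. CACNB3, CACNB1 and CACNA2D1 had -0.43 ± 0.18, -0.25 ± 0.18 and -0.04 ± 0.12, and CACNA2D3 and CACNB4, with mean counts of 65 and 85, had 0.17 ± 0.33 and 0.57 ± 0.69.

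Of 6 genes of the CLC family, which holds chloride channels of the cell surface and chloride-proton exchangers of endosomes and lysosomes, none passed edgeR's test, and their log2 fold changes lay between -0.24 and 0.36. Of these 6, 2 had an unadjusted p under 0.05, 1 was called by DESeq2 and 0 by limma-voom. Among all 16340 genes tested, 27.4% had such an unadjusted p, and DESeq2 called 2187 and limma-voom 1322. CLCN3, an endosomal exchanger, had 105.8 and 108.6 CPM in the controls and 133.3 and 142.0 CPM with carnosine. These groups were apart, and the log2 fold change of 0.36 ± 0.10 missed the threshold (adjusted p = 0.0679). CLCN7, the lysosomal exchanger, had 114.7 and 120.6 CPM against 121.3 and 118.3 CPM (0.03 ± 0.10). CLCN4, CLCN5, CLCN6 and CLCN2, the surface channel, had 0.35 ± 0.16, 0.25 ± 0.11, 0.09 ± 0.19 and -0.24 ± 0.19.

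Of 3 anoctamins, ANO6, a lipid scramblase and ion channel opened by calcium, had 117.2 and 118.0 CPM in the controls and 141.4 and 164.4 CPM with carnosine, a log2 fold change of 0.38 ± 0.11 (adjusted p = 0.0841). With 1 library left out, the log2 fold change of ANO6 ran from 0.26 to 0.48. ANO10 had 0.07 ± 0.11 and ANO8 -0.09 ± 0.22, with overlapping groups. Of the 3, 1 had an unadjusted p under 0.05 and 1 was called by DESeq2, with 0 by limma-voom. Among all 16340 genes tested, 27.4% had such an unadjusted p, and DESeq2 called 2187 and limma-voom 1322. The mechanosensitive channel PIEZO1 had 194.5 and 156.1 CPM against 184.1 and 147.6 CPM. In PIEZO1 the replicates of a group differed more than the groups did, with a log2 fold change of -0.08 ± 0.15 (adjusted p = 0.789).

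Levels of different genes were compared per length, as RPKM (the CPM divided by the summed exon length in kilobases). With the exon union as the length, KCNN4, ANO6, PIEZO1, CLCN3, CLCN7 and ANO10 stood highest, with means over the 4 libraries of 17.01, 16.4, 15.1, 15.1, 14.6 and 14.2 RPKM. Neighbours among these 6 do not differ beyond the spread of their libraries: KCNN4 ran from 15.0 to 19.9 and ANO6 from 14.2 to 19.96 RPKM. KCNS3 and TRPM7 followed at 10.4 and 7.90 RPKM and KCNMA1 at 6.46 RPKM over 35644 bases of exon. This order depends on the length used: with the longest transcript KCNMA1 was at 19.1 RPKM, above CLCN3 at 18.3, and CACNA1A went from 1.89 to 9.42 RPKM. The median was 1.17 RPKM, 29 of the 51 genes had at least 1 RPKM, and CACNB4 was lowest at 0.0378 RPKM.

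In the order by exon union, KCNE4 was in the controls 46th of the 51 at 0.153 RPKM and with carnosine 19th at 2.12 RPKM. CATSPER1 went from 19th at 2.11 RPKM to 38th at 0.417 RPKM. KCNJ2 went from 18th at 2.24 RPKM to 10th at 5.22 RPKM, and TRPV2 from 12th to 21st. The 9 leading genes of the controls were also the 9 leading genes with carnosine, and none of these 9 passed edgeR's test, while DESeq2 called CLCN3 and ANO6 (adjusted p = 0.0216 and 0.0320).

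**Figure D5:**
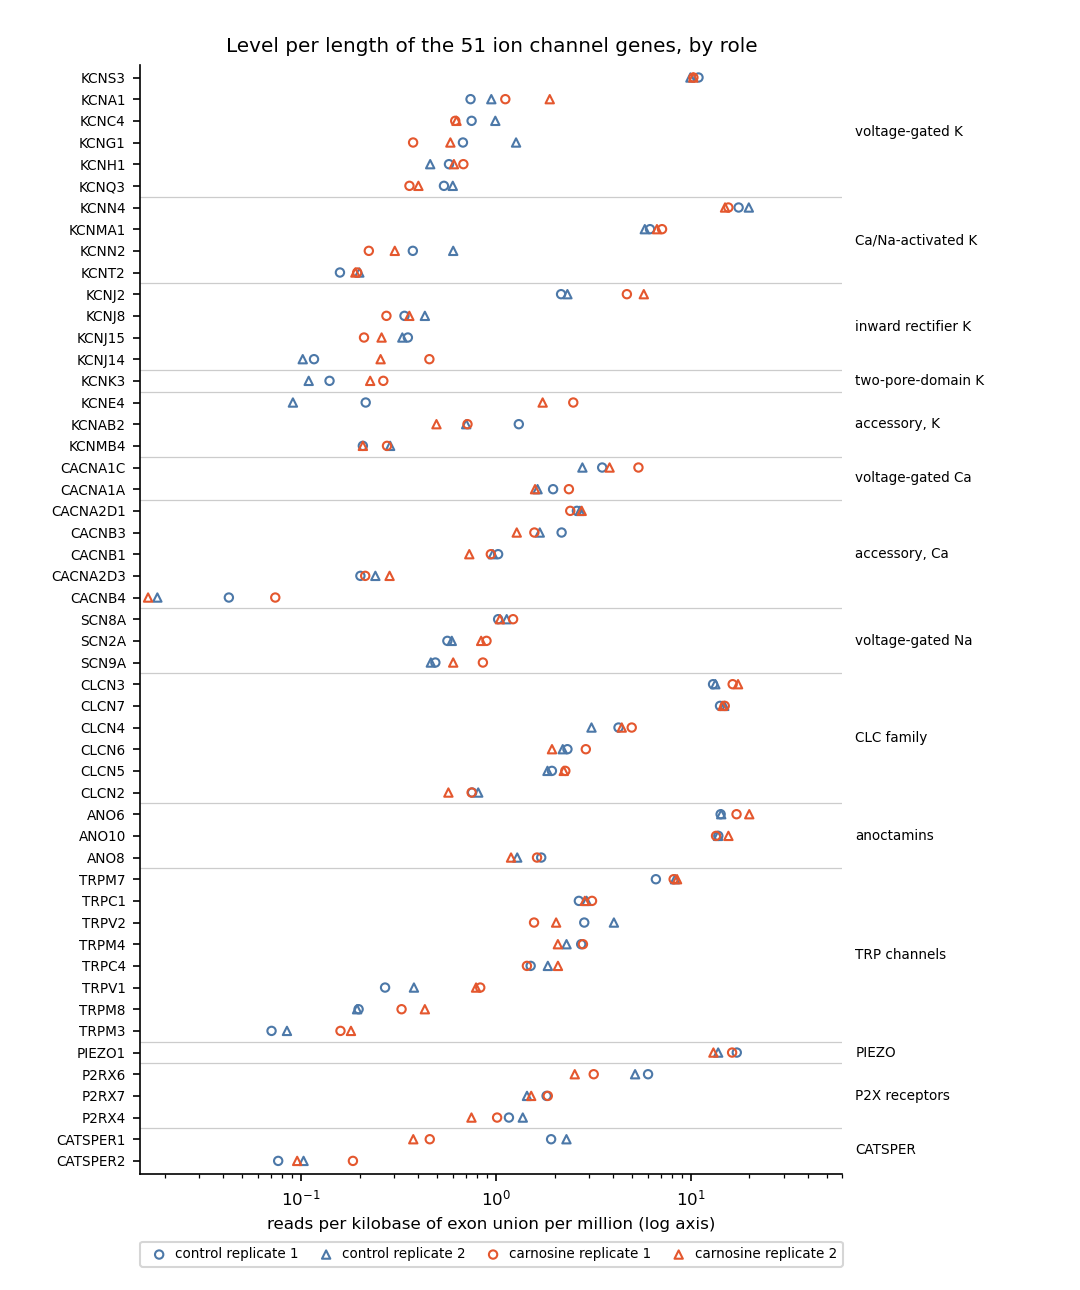
Level per length in RPKM (horizontal log axis) of each of the 51 channel genes, grouped by role, in the 2 control libraries (blue) and 2 carnosine libraries (orange), with circles for replicate 1 and triangles for replicate 2. KCNE4, KCNJ2 and CATSPER1 have well-parted groups, while PIEZO1 and CLCN7 have overlapping ones and CACNB4 parts by replicate.

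Genes just inside the count threshold were KCNJ8, CATSPER2 and KCNJ14, with mean counts of 52.25, 55.5 and 59.25. Just outside were TRPV3 and KCNIP2, with 49.5 and 43.75. KCNE4, KCNJ14 and CATSPER2 averaged under 50 counts in the controls, and KCNJ8 did with carnosine. Of the 126 rows with a channel symbol under the threshold, 46 had no count in any library and 17 had enough counts to be tested. None of the 17 was called by edgeR, DESeq2 or limma-voom. An unadjusted p under 0.05 was found for 1 of the 17, against 27.4% of all genes tested. A count of 0 allows up to 3 counts, or between 0.0422 and 0.0596 CPM in a library, which covers counting error only.

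Other genes of ion transport that the symbol rule does not take were described by 7 lists with 108 tested members, of which 6 rose and 5 fell, or 10.2% against 8.31% of all genes tested. Of 20 ion pumps and exchangers, 3 rose: ATP1B1, a beta subunit of the sodium pump, from 51.5 and 44.5 CPM to 91.1 and 99.8 CPM (log2 fold change 0.99 ± 0.11, adjusted p = 0.0113), and the sodium-proton exchangers SLC9A9 and SLC9A5 by 1.06 ± 0.17 and 0.995 ± 0.14. The call of SLC9A9 ended without control replicate 1 (0.0576). Of 17 genes of calcium release and store-operated entry, ITPR3, a receptor of inositol trisphosphate, fell from 229.5 and 231.1 CPM to 129.4 and 119.0 CPM (-0.89 ± 0.10, adjusted p = 0.0116), while STIM1 and ORAI1 had 0.10 ± 0.12 and -0.06 ± 0.10. Of 16 genes of volume-regulated and other anion channels, LRRC8C fell by 0.94 ± 0.14 and its obligatory partner LRRC8A had 0.07 ± 0.11. The call of LRRC8C ended without control replicate 2 (0.0567).

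Among 20 channel regulators, RRAD, a small GTPase that restrains voltage-gated calcium channels, rose by 1.05 ± 0.12 (adjusted p = 0.0113) and HPCAL1, a calcium sensor, by 0.64 ± 0.12, while KCTD12 and the ankyrin ANK2 fell by 0.67 ± 0.09 and 0.43 ± 0.09. Of 16 genes of cation-chloride cotransport, SLC12A9 fell by 0.77 ± 0.15 and NKCC-type SLC12A2 had -0.31 ± 0.12. Of 14 other cation channels, the acid-sensing channel ASIC3 rose, from 17 and 11 counts to 44 and 43 (1.88 ± 0.44, adjusted p = 0.0469). None of 5 tested gap junction and pannexin genes passed edgeR's test. An unadjusted p under 0.05 was found for 2 of the 5, while 1 was called by DESeq2 and 0 by limma-voom. Among all 16340 genes tested, 27.4% had such an unadjusted p, and DESeq2 called 2187 and limma-voom 1322. GJA1, with the most counts of the 5, had 85.6 and 106.9 CPM against 115.3 and 202.5 CPM (adjusted p = 0.123 in edgeR). The call of HPCAL1 ended without either 1 of the controls (0.0990 and 0.170), that of SLC12A9 without control replicate 1 (0.0954), and those of ANK2 and ASIC3 without any 1 of the 4 libraries (0.0534 to 0.228).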

How the data were processed

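The authors deposited raw, unnormalized whole-number counts per gene, with 1 column for each library. Per the submitters' processing notes the tools were HISAT2 2.1.0, HTSeq 0.6.1 and bcl2fastq 2.17.0, and the build hg38. No source used here gives the annotation release, the strand setting or the treatment of reads with several matches, which bear on overlapping genes.

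Genes were kept by filterByExpr (a count of 10, or 0.171 CPM, in 2 libraries and a total of 15), which left 16340 of 58219. All 51 channel genes passed this filter. The test was edgeR 4.0.16 (quasi-likelihood, TMM scaling, two-sided, R 4.3.3) on group alone, which leaves 2 residual degrees of freedom; p values were adjusted by Benjamini-Hochberg over the whole tested table, at a threshold of 0.05. The SE is the absolute log2 fold change over the root of F and is approximate. CPM uses scaled library sizes, and RPKM divides it by the exon union of GENCODE 29 (GRCh38), matched by identifier for all 51 genes. Replicates differed by more than sampling noise (chi-square per degree of freedom 36.6 between controls, 57.6 between carnosine libraries).

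The members, the 7 lists and the tests were chosen with earlier results of these data known. The rule for named genes took members past the threshold, the member with the most counts in each role, the 5 largest differences that did not pass, the 3 rows on each side of the count threshold (of which 1 is not reported here), and in each list up to 4 genes that passed or else the 1 with the most counts. For cell type markers the rule took those with the most counts in each marker list, and not all marker lists are reported here. The other markers, the other members, KCNQ1, SHPK, GRWD1, the other overlapping genes, STIM1, ORAI1, LRRC8A and SLC12A2 were named after their values were seen. Alternatives were other scalings, filters and tests (DESeq2 1.42.0, limma-voom 3.58.1), a replicate block and each library left out.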

Additional observations from a re-analysis of the deposited data

How the results depend on the processing

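Over all genes, the count of 1358 became 3145 with no filter on low counts, 2187 in DESeq2 and 399 in a test against a 1.2-fold change, and ranged from 505 to 1595 with 1 library left out. For the same settings the channel genes called went from 9 to 21, 15 and 4, and from 6 to 11 with 1 library left out, and genes of the 7 related lists from 11 to 27, 20 and 7, and from 6 to 15. Genes tested over the whole table numbered 26103 with no filter on low counts. They numbered 16340 in the main fit, in the test against a 1.2-fold change and with the replicate block given below. DESeq2 was given the same 16340 genes. Its default filter, which can leave genes without an adjusted p, was kept, and how many it left was not counted. The causes were not tested. Among the 26 channel genes without exonic bases on the opposite strand 5 were called, fewer by construction. The median level per length was 1.57 RPKM with the longest transcript. With the replicate number as a replicate block the counts were 5767 over all genes, 27 of the channel genes and 40 of the related genes, with the 9 called channel genes all among the 27. Same-numbered libraries deviated together (r = 0.315 across genes), but the labels tie no numbers and there are only 2 pairs.

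Of the 51 genes, 35 kept their sign under the 13 alternatives, the 9 called ones included. Sign changes, all at an adjusted p above 0.4, came for KCNS3 (0.0039) and KCNMB4 (0.0066) with total counts only and for KCNMB4 (0.0064) in limma-voom, and otherwise with 1 library left out. Over those 4 fits the log2 fold changes ran from -0.041 to 0.17 for ANO10, -0.33 to 0.13 for ANO8, -0.18 to 0.39 for CACNA1A, -0.14 to 0.053 for CACNA2D1, -0.053 to 0.36 for CACNA2D3, -0.90 to 1.31 for CACNB4, -0.23 to 0.35 for CLCN6, -0.013 to 0.059 for CLCN7, -0.25 to 0.22 for KCNMB4, -0.092 to 0.045 for KCNS3, -0.055 to 0.27 for KCNT2, -0.12 to 0.22 for P2RX7, -0.25 to 0.083 for PIEZO1, -0.047 to 0.18 for SCN8A, -0.22 to 0.31 for TRPC4 and -0.28 to 0.14 for TRPM4. The count over all genes fell to 635 without control replicate 1 and 505 without control replicate 2.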

Other observations

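CACNB4 differed more between replicates than between groups: it had 110 and 39 counts in control replicates 1 and 2 and 161 and 30 in carnosine replicates 1 and 2, and was the 1 of the 51 genes more than 1.5-fold higher in replicate 1 of both groups. Replicate 1 was the higher library in both groups, in CPM, for 21 of the 51 channel genes (41.2%) and for 32.1% of all genes tested. What sets replicate 1 apart is not given in the labels.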
